A study of Homo sapiens with 19 samples.

Results

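The 37 genes described here are NFE2L2, which encodes the transcription factor NRF2, its repressor KEAP1, and 35 genes of detoxification and redox balance that are widely listed as NRF2 targets. They were taken as a fixed list of symbols matched to the Ensembl identifiers of the count tables, by their known roles and not by a threshold on any value, and they are 37 of 62700 genes in those tables. In most cells KEAP1 holds NRF2 in the cytoplasm and hands it to a ubiquitin ligase for degradation. When reactive chemicals modify KEAP1, NRF2 builds up, enters the nucleus and, with small MAF proteins, binds antioxidant response elements near genes that reduce quinones and carbonyls, make and use glutathione, run the thioredoxin system, supply NADPH and export conjugates. A549 is an established line of human lung adenocarcinoma cells that carries a mutant KEAP1 and is known for constant NRF2 activity.

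The study drew RNA from living cells by nanostraw electroporation, called NEE in the labels. One arm held 3 libraries of RNA drawn by NEE from A549 monolayers, labelled as technical replicates. The other arm held lysates of A549 spheroids and of A549 monolayers, each taken ahead of NEE and right after, at 2 h and at 24 h, with 2 biological replicates at each time and 16 libraries in all. All libraries were made with Smart-Seq2. NEE-sampled RNA was purified with a clean-up kit and lysate RNA was isolated using a kit for total RNA, so the way of sampling and the kit cannot be told apart. No labelled group was kept for 2 h or 24 h without NEE, so NEE, handling and time in culture cannot be told apart either. All groups share 1 cell line and its mutant KEAP1, and none has an intact KEAP1 for comparison. In these bulk libraries, fewer cells of a kind and less RNA per cell cannot be told apart.

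The element that NRF2 binds has a core written TGACNNNGC. This core was searched on both strands of RefSeq promoter windows (GRCh38.p14, 250 bases before to 50 bases after a gene's start), and no other motif was searched. Windows were listed for 31 of the 37 genes. The core was present in 13 of their 41 windows (31.7%), in 12 genes, against 4687 of 35116 windows of all genes (13.3%). All sites whose core lies wholly before the start are shown, whether or not the gene was called below. They hold the letters NRF2 is known to bind. Each is turned to read TGAC, with the core in capitals and 10 bases on either side. A match is a description of letters and not a measured binding site.
GSTP1: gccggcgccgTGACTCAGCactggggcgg
GPX2: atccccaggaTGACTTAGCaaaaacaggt
KEAP1: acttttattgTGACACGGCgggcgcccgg
KEAP1: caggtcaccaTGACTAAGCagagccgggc
TXNRD1: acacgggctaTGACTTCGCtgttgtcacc
TXNRD1: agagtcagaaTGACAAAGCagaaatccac
GCLM: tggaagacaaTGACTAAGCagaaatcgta
ME1: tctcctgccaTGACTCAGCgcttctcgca
PGD: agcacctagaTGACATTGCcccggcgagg
EPHX1: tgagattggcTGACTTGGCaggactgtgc
CYP4F11: cagctcagggTGACACAGCatgggcacag
CBR1: ccagctagccTGACTTTGCagaacccgca

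The GSTP1 site lies at chr11:67583736-67583764, its core 66 bases before the start, and the GPX2 site at chr14:64942849-64942877, its core 122 bases before the start. KEAP1 itself holds a pair of cores 54 and 31 bases before its start, at chr19:10502807-10502835 and chr19:10502784-10502812. TXNRD1 has several starts, and its sites shown lie at chr12:104215670-104215698 and chr12:104286920-104286948. A further TXNRD1 core, not shown, runs across a start. The remaining sites lie at chr1:93909446-93909474 for GCLM, chr6:83431170-83431198 for ME1, chr1:10398853-10398881 for PGD, chr1:225825266-225825294 for EPHX1, chr19:15935005-15935033 for CYP4F11 and chr21:36069855-36069883 for CBR1. For CYP4F11 and EPHX1, 2 of the members called between the cultures, the full 250 bases before the start are given on the gene's own strand, at chr19:15934868-15935117 (minus strand) and chr1:225825104-225825353 (plus strand). CYP4F11 reads the core on the other strand.
CYP4F11: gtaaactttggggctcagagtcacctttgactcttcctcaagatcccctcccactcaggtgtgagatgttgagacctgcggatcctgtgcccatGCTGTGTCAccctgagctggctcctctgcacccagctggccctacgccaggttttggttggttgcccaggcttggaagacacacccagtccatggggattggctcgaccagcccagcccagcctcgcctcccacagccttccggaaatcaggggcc
EPHX1: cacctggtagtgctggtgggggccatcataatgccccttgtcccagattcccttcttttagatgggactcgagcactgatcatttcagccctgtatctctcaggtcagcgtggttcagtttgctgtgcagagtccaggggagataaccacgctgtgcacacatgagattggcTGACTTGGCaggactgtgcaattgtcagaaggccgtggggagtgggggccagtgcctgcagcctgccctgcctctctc

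The NEE-sampled libraries held 13626934 to 18512985 counts and the lysates 16031034 to 24571083. Levels are given as CPM, a gene's counts as a share of the library's total scaled to 1000000, on which 3 counts are worth 0.122 to 0.22 CPM. Smart-Seq2 reads carry no molecular identifiers, so floors and counting intervals cover counting error only. Monolayer replicate 1 before NEE stood apart. Its 8 epithelial markers summed to 5122 CPM, against 11510 to 24650 CPM in the other monolayers and 12170 to 17780 CPM in spheroids. KRT8, KRT18, KRT19 and CDH1 were below all other monolayers, and EPCAM and CLDN4 lay within their range. CLDN7 and MUC1 were at 0, and reached only 1.40 and 2.01 CPM in the other monolayers. The 10 markers of natural killer and T cells summed to 587.5 CPM in this library with none at 0. They summed to 15.4 to 22.7 CPM in the other monolayers and 14.1 to 49.7 CPM in spheroids. Of the 37 genes, 19 were lower in this library than in each of the other 15 lysates, 17 lay within their range and 1, TXN, was higher. Among all 10084 genes at a mean of 5 CPM or more, 16.2% were lower and 23.5% higher than in each of the other lysates. The counts of calls in comparisons that use this library are therefore given with and without it, and without it the monolayers before NEE are 1 library whose spread is taken from the other groups. The part of other cells in its values was not tested.

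Together the 37 genes took a large share of each library. They made up 5.02%, 5.66% and 5.61% of all counts in NEE-sampled RNA, 5.23% to 7.31% in spheroids (median 6.17%, n = 8) and 2.55% to 5.78% in monolayers (median 5.36%, n = 8). The lowest monolayer value is replicate 1 before NEE, and the other 7 lay between 4.85% and 5.78%. Most of it came from few genes. Per exon length (TPM, the share of counts per base of exon), the median over the 16 lysates was 24030 for AKR1B10, an aldo-keto reductase of reactive carbonyls, which ranked 2 among all genes. ALDH1A1, the retinal-oxidising aldehyde dehydrogenase, had a median of 13770 TPM and rank 3, and AKR1B1, aldose reductase, had 6782 TPM and rank 7. ALDH3A1, which oxidises aromatic aldehydes, had 6511 TPM and rank 8, and NQO1, the quinone reductase most used as a readout of NRF2, had 3648 TPM and rank 20. At the other end, SRXN1, the sulfiredoxin that repairs over-oxidised peroxiredoxins, had a median of 0.398 TPM. It overlaps an annotated gene on the same strand, with which it may share reads. The glutathione transferases GSTA2 and GSTA1 had 1.41 and 2.70 TPM. The regulators lay between these ends, with KEAP1 at a median of 264 TPM and NFE2L2 at 86.2 TPM. The counting of reads shared by near-identical genes is not given in the sources used here, and it bears on the aldo-keto reductases and the alpha-class transferases. The coding sequences of AKR1C1 and AKR1C2 are 98.0% identical, those of GSTA1 and GSTA2 96.7% and those of AKR1B10 and AKR1B15 92.1%, so the split between such pairs is uncertain.

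**Figure D1:**
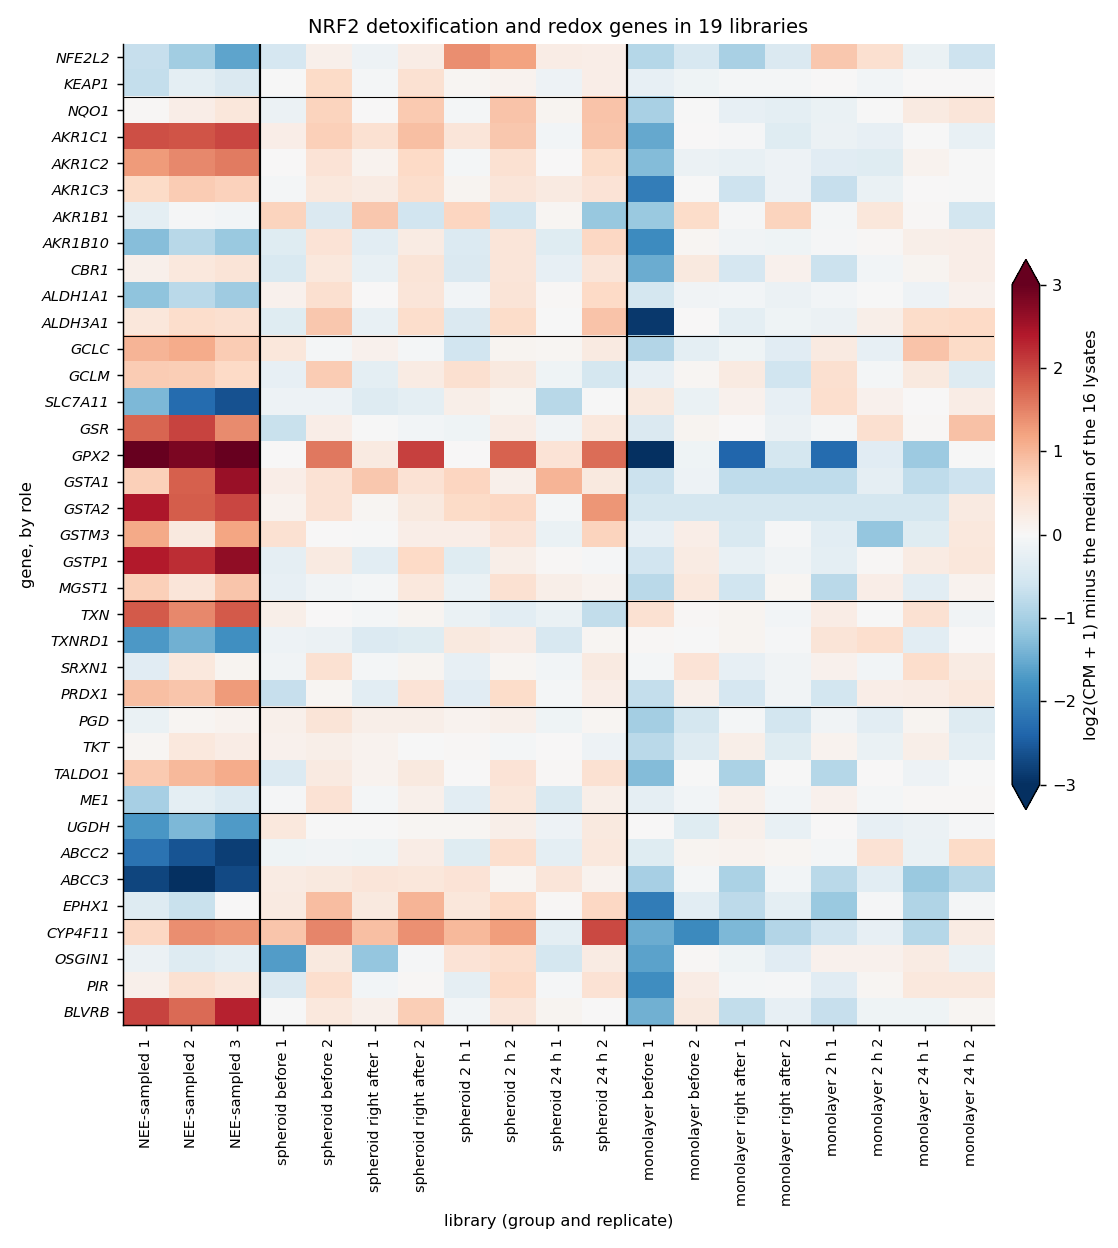
Levels of the 37 genes (rows, by role) in the 19 libraries (columns: NEE-sampled RNA, spheroids, monolayers), as log2(CPM + 1) minus the gene's median over the 16 lysates, with colours ending at −3 and 3. The column of monolayer replicate 1 before NEE is low in most rows, and the NEE-sampled columns differ from the lysates in both directions.

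The response of the pathway to NEE was followed by setting each later time against the lysates before NEE. Around NEE the levels of NFE2L2, the gene for the transcription factor itself, were highest at 2 h in both cultures, while no member was called by edgeR in either culture alone. In spheroids NFE2L2 (ENSG00000116044, chr2:177227595-177392697, minus strand, GRCh38) was at 89.0 and 141 CPM before NEE, 114 and 149 CPM right after, 332 and 294 CPM at 2 h and 149 and 144 CPM at 24 h. In monolayers it was at 68.9 and 90.5 CPM before NEE, 64.1 and 92.8 CPM right after, 224 and 177 CPM at 2 h and 110.2 and 82.5 CPM at 24 h. In both cultures the pair of libraries at 2 h lay above every library of the same culture at the other 3 times.

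The log2 fold change of NFE2L2 at 2 h against before NEE was 1.42 ± 0.28 in spheroids (SE, n = 2 each, edgeR with Benjamini-Hochberg adjustment, adjusted p = 0.423) and 1.38 ± 0.28 in monolayers (adjusted p = 1). Neither passed the threshold of an adjusted p under 0.05, and DESeq2 called both (adjusted p = 0.00542 in spheroids and 0.00883 in monolayers). The change did not differ detectably between the cultures, with an interaction of 0.04 ± 0.39 on the log2 scale (adjusted p = 1 by edgeR). Averaged over the 2 cultures, a comparison added after the values were seen, NFE2L2 was at 257 ± 69.5 CPM at 2 h against 97.3 ± 30.6 CPM before NEE (mean ± SD, n = 4 each), with a log2 fold change of 1.40 ± 0.20 (SE, adjusted p = 0.0223 by edgeR). It was the 1 of 37 genes called in this average, in which edgeR called 0.0337% of 17822 genes higher. The call was lost without monolayer replicate 1 before NEE (log2 fold change 1.30, adjusted p = 0.0921 by edgeR), of the 2 h monolayers (0.117), of the spheroids before NEE (0.259) or of the 2 h spheroids (0.089), and when the other times were left out of the fit (0.418). Without monolayer replicate 1 before NEE the monolayer value was 1.19 ± 0.34 and the spheroid value stayed at 1.42.

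KEAP1 (ENSG00000079999, chr19:10486120-10503741, minus strand), the repressor, kept a narrow range in monolayers and a wider one in spheroids, and was not called over time. In spheroids it was at 245 and 368 CPM before NEE, 238 and 341 CPM right after, 256 and 264 CPM at 2 h and 222 and 284 CPM at 24 h. In monolayers its 8 values ran from 206 CPM in replicate 1 before NEE to 248 CPM, with a median of 235 CPM. At 2 h its log2 fold change against before NEE was −0.26 ± 0.23 in spheroids and 0.21 ± 0.23 in monolayers (SE, adjusted p = 1 for both by edgeR). NQO1 (ENSG00000181019, chr16:69706996-69726951, minus strand) was at 2779 and 5215 CPM in spheroids at 2 h, against 2541 and 4623 CPM before NEE, and the replicates lay farther apart than the times. In monolayers NQO1 was at 1474 and 2858 CPM before NEE, 2449 and 2367 CPM right after, 2499 and 2882 CPM at 2 h and 3491 and 3724 CPM at 24 h. Its log2 fold change at 24 h was 0.75 ± 0.40 in monolayers (SE, adjusted p = 1 by edgeR) and 0.35 without replicate 1 before NEE.

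TXNRD1, the reductase that recharges thioredoxin with NADPH, was the other member with all 2 h values above those before NEE. It was at 2585 and 2477 CPM in spheroids at 2 h against 1893 and 1858 CPM before NEE, and at 2784 and 2977 CPM in monolayers at 2 h against 2162 and 2111 CPM before NEE. Averaged over the cultures its log2 fold change was 0.45 ± 0.15 (SE, n = 4 each), which did not pass the test (adjusted p = 0.926 by edgeR, and 1 without monolayer replicate 1 before NEE). Over all genes, 0.847% had all 4 values at 2 h above those before NEE, and 2 of 37 members did. OSGIN1 was higher at 2 h within each culture but not across them, and edgeR did not call it in the average. In spheroids it was at 149.7 and 162.3 CPM at 2 h against 34.75 and 139.7 CPM before NEE. In monolayers it was at 124.8 and 123.9 CPM at 2 h against 36.51 and 115.5 CPM before NEE.

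Among the enzyme genes, GCLC, the catalytic subunit of the enzyme that starts glutathione synthesis, had the smallest p of the members at 24 h in monolayers. It was at 14.7 and 22.8 CPM before NEE, 25.6 and 22.0 CPM right after, 33.8 and 23.4 CPM at 2 h and 51.8 and 42.3 CPM at 24 h. In spheroids its 8 values lay between 18.4 and 35.6 CPM with no such order. The log2 fold change in monolayers at 24 h was 1.35 ± 0.34 against before NEE (SE, n = 2 each, adjusted p = 1 by edgeR, DESeq2 adjusted p = 0.049), and 1.06 ± 0.40 without replicate 1 before NEE. Against monolayers right after NEE, a contrast free of that library though the fit held it, it was 0.97 ± 0.33 (SE, n = 2 each, adjusted p = 1 by edgeR). PGD, which makes NADPH in the pentose phosphate pathway, was at 1980 and 1421 CPM in monolayers at 24 h, against 912 and 1294 CPM before NEE. Its log2 fold change was 0.64 ± 0.23 (SE, adjusted p = 1 by edgeR), and 0.41 ± 0.25 without replicate 1 before NEE. TKT, the transketolase of the same pathway, had 0.56 ± 0.23 and 0.35 ± 0.25 in the same comparisons (SE, adjusted p = 1 for both by edgeR). CYP4F11, a cytochrome P450 that hydroxylates fatty acids, was at 3.14 and 7.96 CPM in monolayers at 24 h, against 1.67 and 0.998 CPM before NEE (log2 fold change 2.08 ± 0.71, SE, adjusted p = 1 by edgeR), and 2.49 ± 0.96 without monolayer replicate 1 before NEE.

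By edgeR, 0 of the 37 genes were called at any time in either culture. Of all 17822 genes tested, 0% were called right after NEE, 0.0112% (spheroids) and 0.00561% (monolayers) at 2 h and 0% at 24 h. At an unadjusted p under 0.05 the members numbered 0 right after NEE, 1 at 2 h (NFE2L2) and 1 at 24 h in spheroids, against 2.01%, 3.39% and 2.5% of all genes. The spheroid gene at 24 h was TXN, the thioredoxin itself, at 92.5 and 64.3 CPM against 120 and 108 CPM before NEE. In monolayers they numbered 2 right after NEE, 5 at 2 h and 6 at 24 h, against 2.25%, 3.39% and 4.42% of all genes. DESeq2 called 0, 1 and 0 members in spheroids, where it called 0.00561%, 0.219% and 0% of all genes, and 0, 1 and 1 in monolayers, where it called 0.0393%, 0.297% and 0.247%. Without monolayer replicate 1 before NEE edgeR called 0 members at every time, and at an unadjusted p under 0.05 the monolayer numbers were 2, 2 and 3, against 1.88%, 2.77% and 2.42% of all genes. Without replicate 2 of the monolayers before NEE, which leaves replicate 1 as their only library, edgeR called 1, 1 and 3 members higher in monolayers, and 38, 48 and 102 genes in all.

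The median log2 fold change of the 37 genes in spheroids was −0.08 right after NEE, 0.01 at 2 h and −0.01 at 24 h. In monolayers it was 0.19, 0.32 and 0.46, with positive values in 26, 30 and 32 genes, beside medians of −0.02, −0.03 and −0.01 over all genes. Without replicate 1 before NEE the monolayer medians were −0.17, −0.02 and 0.11, with positive values in 12, 17 and 23 genes. Most of the upward shift of the list in monolayers was absent without that library, in which the list was low. From right after NEE to 24 h, a contrast without that library though the fit held it, the monolayer median was 0.28 with 32 of 37 positive. Here 0 members were called by edgeR and 2 had an unadjusted p under 0.05 (1.64% of all genes). The interaction of culture and time was called for 0 members at each of the 3 times by edgeR and by DESeq2, with 1, 3 and 3 members at an unadjusted p under 0.05 against 2.9%, 3.11% and 3.52% of all genes. Without monolayer replicate 1 before NEE these numbers were 2, 0 and 3, against 2.76%, 2.79% and 2.58%, and the interaction medians were 0.12, 0.09 and −0.12 in place of −0.21, −0.24 and −0.52. These comparisons share their samples before NEE within each culture.

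**Figure D2:**
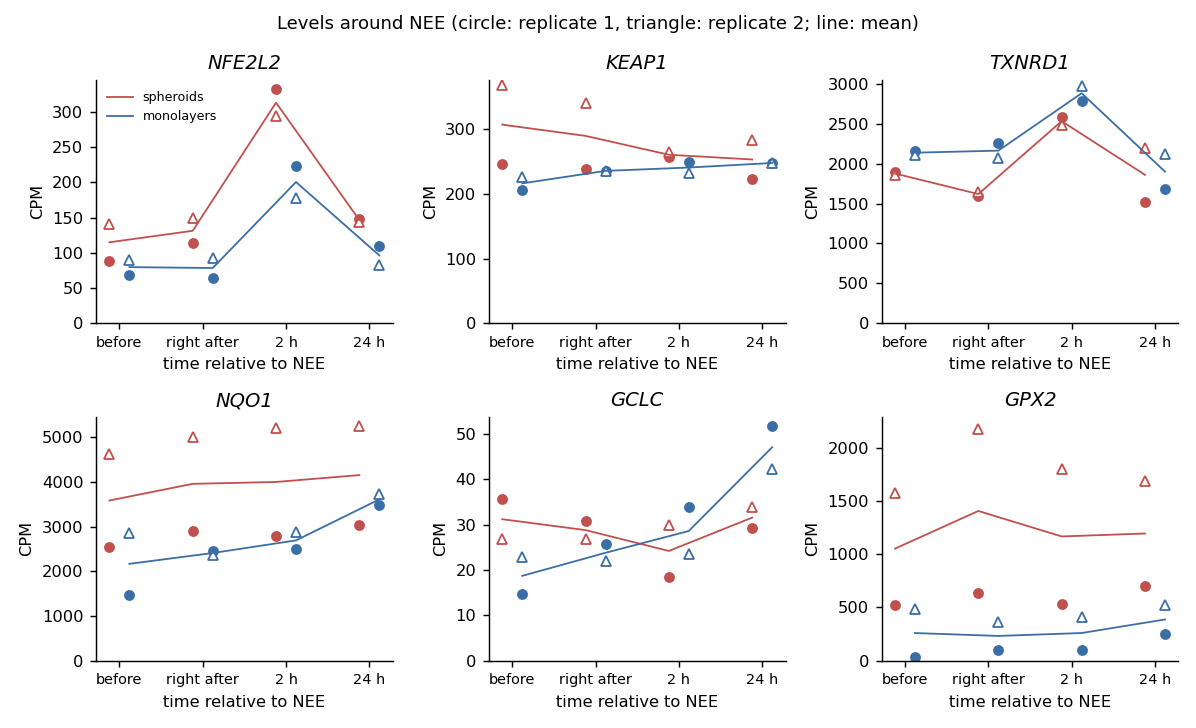
CPM of 6 genes before NEE, right after, at 2 h and at 24 h in spheroids (red) and monolayers (blue), with circles for replicate 1, triangles for replicate 2 and lines through the means. NFE2L2 and TXNRD1 peak at 2 h in both cultures, and GPX2 separates the cultures and, within each, the replicates.

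Spheroids, in which cells grow as small balls, were set against flat monolayers over the 4 times. The 8 libraries of a culture are 2 replicates at each of 4 times, and the fit took them as independent. Same-numbered libraries share a batch tag, so there may be fewer independent units than n = 8. The p-values do not allow for this. NFE2L2 and 12 further members were called higher in spheroids, and 0 members were called lower. The log2 fold change was positive for 33 members and negative for 4. Of the 37 genes, 13 were called higher, where edgeR called 10% of all genes higher and 9.84% lower. The median log2 fold change of the members was 0.32, beside −0.02 over all genes. Without monolayer replicate 1 before NEE, 12 were called higher, where 7.77% of all genes were, with a median of 0.27. Of these, 11 were called in both fits, NQO1 and GPX2 only with that library and UGDH only without it. Without replicate 2 of the monolayers before NEE, which leaves replicate 1 as their only library, the members' median was 0.60.

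NFE2L2 in spheroids ranged from 89.0 to 332 CPM with a median of 147 CPM, against 64.1 to 224 CPM with a median of 91.7 CPM in monolayers. The ranges overlapped, and at each time the spheroid mean was the higher. Its log2 fold change was 0.72 ± 0.14 (SE, n = 8 each, adjusted p = 0.00277 by edgeR), and 0.67 ± 0.14 without monolayer replicate 1 before NEE (adjusted p = 0.00536 by edgeR). KEAP1 ranged from 222 to 368 CPM (median 260.1 CPM) in spheroids and from 206 to 248 CPM (median 235 CPM) in monolayers. Its log2 fold change was 0.32 ± 0.12 (SE, adjusted p = 0.0641 by edgeR, 0.0394 with the replicate number as a block).

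Among the reductases, AKR1C1, which reduces steroids and carbonyls, had the clearest difference. It ranged from 322 to 637 CPM (median 509 CPM) in spheroids, against 116 to 343 CPM (median 293 CPM) in monolayers, a log2 fold change of 0.92 ± 0.21 (SE, adjusted p = 0.00747 by edgeR). The ranges touched only through replicate 1 of the spheroids at 24 h. Its relatives AKR1C2 and AKR1C3 were also higher, by 0.64 ± 0.16 and 0.73 ± 0.23 on the log2 scale (SE, adjusted p = 0.0132 and 0.0371 by edgeR), as was ALDH1A1, by 0.47 ± 0.12 (adjusted p = 0.0167). NQO1 ranged from 2541 to 5259 CPM (median 3833 CPM) in spheroids, against 1474 to 3724 CPM (median 2678 CPM) in monolayers. Its log2 fold change of 0.64 ± 0.20 (SE, adjusted p = 0.0371 by edgeR) became 0.54 ± 0.19 (adjusted p = 0.0869) without monolayer replicate 1 before NEE. The call of NQO1 was lost on leaving out any 1 of 11 libraries, with adjusted p of 0.0644 to 0.103. AKR1B1, AKR1B10, CBR1 and ALDH3A1 were not called, with log2 fold changes of 0.09 to 0.48.

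GPX2, a glutathione peroxidase of epithelial cells that removes hydroperoxides, was called higher in spheroids. It ranged from 527 to 2179 CPM (median 1138 CPM) in spheroids, against 34.8 to 526.3 CPM (median 306 CPM) in monolayers, so the groups did not overlap, though the lowest spheroid and the highest monolayer library all but met. The log2 fold change was 2.17 ± 0.59 (SE, n = 8 each, adjusted p = 0.0237 by edgeR), and 1.95 ± 0.60 without monolayer replicate 1 before NEE (adjusted p = 0.0642). The alpha-class transferases GSTA1 and GSTA2, which conjugate glutathione to electrophiles, were rare but present in every spheroid library. GSTA1 had 214 counts over the 8 spheroid libraries and 22 over the 8 monolayer libraries, a ratio of CPM of 10.7 (95% interval 6.89 to 17.5 for counting error). GSTA2 had 146 counts in spheroids and 15 in monolayers, all 15 in replicate 2 at 24 h, a ratio of 10.7 (95% interval 6.29 to 19.6). Both were called (adjusted p = 0.00462 and 0.00573 by edgeR). The genes of glutathione synthesis and recycling were not called. GCLC, its modifier subunit GCLM, the cystine transporter SLC7A11 and the reductase GSR had log2 fold changes of −0.21 to 0.18, and GSTP1, GSTM3 and MGST1 had 0.15, 0.64 and 0.32 without passing the test.

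None of the 4 thioredoxin system genes was called, with log2 fold changes of −0.12 for TXNRD1, −0.21 for TXN, 0.19 for the peroxiredoxin PRDX1 and 0.01 for SRXN1. Of the genes of NADPH supply and the pentose phosphate pathway, PGD was higher. It was at 1691 to 2447 CPM (median 2068 CPM) in spheroids against 912 to 1980 CPM (median 1456 CPM) in monolayers. The log2 fold change was 0.57 ± 0.12 (SE, adjusted p = 0.00409 by edgeR). TKT, the transaldolase TALDO1 and the malic enzyme ME1 had 0.30, 0.58 and 0.16 and did not pass the test.

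An exporter and a hydrolase, ABCC3 and EPHX1, were called higher in spheroids. ABCC3, an exporter of conjugates on the basolateral membrane, ranged from 1310 to 1662 CPM (median 1572 CPM) in spheroids, against 584 to 1202 CPM (median 710 CPM) in monolayers, with no overlap and a log2 fold change of 0.96 ± 0.16 (SE, adjusted p = 0.00123 by edgeR). EPHX1, the microsomal epoxide hydrolase, ranged from 47.8 to 96.4 CPM (median 65.7 CPM) in spheroids against 10.2 to 46.0 CPM (median 32.0 CPM) in monolayers, also with no overlap (log2 fold change 1.24 ± 0.28, SE, adjusted p = 0.00663 by edgeR). Members without overlap and higher in spheroids were ABCC3, EPHX1, GPX2 and GSTA1, or 4 of 37, where 2.49% of all genes were. CYP4F11 had the smallest p of the list, at 5.13 to 28.8 CPM (median 15.4 CPM) in spheroids against 0.998 to 7.96 CPM (median 3.13 CPM) in monolayers, a log2 fold change of 2.47 ± 0.35 (SE, adjusted p = 0.00036 by edgeR). Its lowest spheroid value, replicate 1 at 24 h, lay within the monolayer range. ABCC2, the apical relative of ABCC3, had 0.01 and UGDH, which makes the UDP-glucuronic acid used to conjugate drugs, had 0.29, and neither was called. OSGIN1, PIR and BLVRB were not called, with 0.11, 0.31 and 0.59. The promoters of EPHX1, CYP4F11, GPX2 and PGD hold the core printed above. So do those of GSTP1, GCLM, ME1, TXNRD1, KEAP1 and CBR1, which were not called between the cultures over the 4 times.

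Over the 3 times after NEE alone, 7 members were called higher (6% of all genes) and 0 lower (6.3%). This contrast leaves out all lysates before NEE, though the fit held them. They were ABCC3, CYP4F11, GSTA1, NFE2L2, GSTA2, AKR1C1 and EPHX1, all of them among the 13. The number was 13 with the replicate number as a block, where edgeR called 1355 of 17822 genes higher. Fewer than 7 were called without replicate 1 or replicate 2 of the monolayers right after NEE. The same held without replicate 1 of the 2 h monolayers or replicate 2 of the 24 h spheroids. Without monolayer replicate 1 before NEE in the fit, all 7 stayed called over these 3 times. AKR1C2, AKR1C3 and BLVRB were then called higher as well. GAPDH, a widely expressed glycolytic gene, was also higher in spheroids over the 4 times (log2 fold change 0.84, adjusted p = 0.00257 by edgeR), while ACTB had −0.31 (adjusted p = 0.0715). Of 54 further genes of the pathway that were tested, 16 were called higher and 2 lower, with a median of 0.38, and 13 and 2 without monolayer replicate 1 before NEE, with a median of 0.32. AKR1B15, the neighbour and near copy of AKR1B10, was at 87.0 ± 6.57 CPM in spheroids against 40.1 ± 9.68 CPM in monolayers (mean ± SD, n = 8 each), with a log2 fold change of 1.22 ± 0.15 (SE, adjusted p = 0.000111 by edgeR). IDH1, the cytosolic NADPH-making isocitrate dehydrogenase, had 0.92 ± 0.12 (SE, adjusted p = 0.000154). The glutaredoxin GLRX had 1.70 ± 0.24 (SE, adjusted p = 0.000314 by edgeR) and FTH1, the ferritin heavy chain, 0.69 ± 0.11 (adjusted p = 0.000557). The 2 lower genes were HMOX1, haem oxygenase 1, with −0.60 ± 0.17 (SE, adjusted p = 0.0271 by edgeR) and SLC3A2, the partner chain of SLC7A11, with −0.39 ± 0.12 (adjusted p = 0.03).

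**Figure D3:**
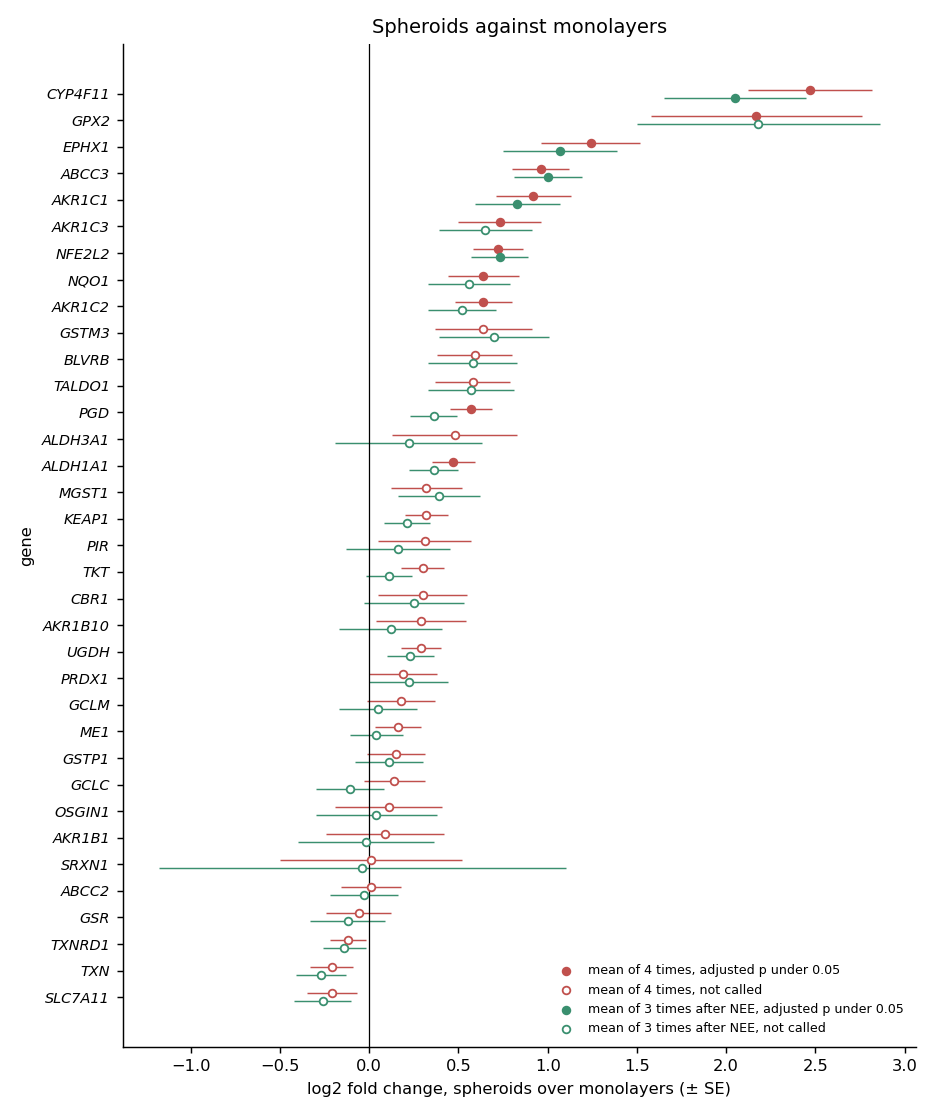
Log2 fold change, spheroids over monolayers, with SE bars, for 35 of the 37 genes, over the 4 times (red) and the 3 times after NEE (green), with filled points at an edgeR adjusted p under 0.05. GSTA1 and GSTA2 are left out because monolayer libraries had 0 counts. CYP4F11 and GPX2 lie farthest to the right and no filled point lies left of 0.

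The biological replicates differed in these genes as well, which bears on how wide the errors are. With the replicate number, the labels' batch tag, as the contrast over all 8 lysate groups, 6 members were called higher in replicate 2 and 0 lower, where edgeR called 0.881% and 0.342% of all genes. They were GPX2, CBR1, PRDX1, TALDO1, EPHX1 and NQO1, and 5 members were called without monolayer replicate 1 before NEE. In spheroids 8 of the 36 members tested were called higher in replicate 2 (0.69% of all genes) and 1 lower (1.28%). GPX2 was at 1577, 2179, 1801 and 1688 CPM in replicate 2 of the spheroids against 527, 631, 531 and 699 CPM in replicate 1 (log2 difference 1.58 ± 0.10, SE, adjusted p = 0.000517 by edgeR). AKR1B1 went the other way, at 4508, 4090, 4133 and 2773 CPM in replicate 2 against 9583, 10560, 9404 and 6301 CPM in replicate 1 (−1.23 ± 0.08, SE, adjusted p = 0.000524). The summed share of the members was 6.68% to 7.31% in replicate 2 of the spheroids and 5.23% to 5.66% in replicate 1, without overlap. In monolayers after NEE 0 of 34 members tested were called between the replicates by edgeR (0.0639% of all genes). Whether the number marks a culture day or a processing batch is not given in the sources used here. This contrast was added after the values were seen.

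RNA drawn by NEE from monolayers was set against lysates of monolayers right after NEE, the group nearest in time, and also against those before NEE. NEE-sampled RNA held more of the transcripts for the 5 glutathione transferases, GPX2, the AKR1C reductases, TXN and PRDX1, and less of those for the transporters ABCC2, ABCC3 and SLC7A11 and for TXNRD1, UGDH and ALDH1A1. Of the 37 genes, 18 were called higher and 6 lower against lysates right after NEE, where edgeR called 14.2% of 17067 genes higher and 20.6% lower. In this comparison lower calls were thus no more frequent among the members than over all genes. The median log2 fold change of the members was 0.99, beside −0.21 over all genes. Against lysates before NEE, which share the NEE-sampled libraries and the fit, 20 were higher (15.6%) and 5 lower (22.5%), with a median of 1.16. Without monolayer replicate 1 before NEE the numbers were 23 higher (14.1%) and 7 lower (19.6%) against right after, and 16 (7.78%) and 7 (13.2%) against before. All 18 and 6 members called against right after stayed called without that library. CBR1, ALDH3A1, PGD, TKT and PIR were then called higher as well, and AKR1B10 lower. Without replicate 1 of the monolayers right after NEE, fewer members and fewer of all genes were called against right after. The members' median was then 0.88. The 3 NEE-sampled libraries are technical replicates, so on that side these p-values measure technical spread. Fitted fold changes use TMM scaling, whose factors were 0.822 to 0.877 in NEE-sampled libraries and 1.034 to 1.132 in monolayers, so they lie above the ratio of the CPM values. Upper-quartile scaling moved the median of all genes by 0.16 on the log2 scale against right after and by 0.13 against before, and then called 20 members higher and 5 lower against right after.

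The regulators were not called. NFE2L2 was at 77.9, 60.8 and 41.3 CPM in NEE-sampled RNA, against 64.1 and 92.8 CPM in lysates right after NEE, a log2 fold change of −0.07 ± 0.31 (SE, adjusted p = 0.882 by edgeR) that was 0.09 with upper-quartile scaling. KEAP1 was at 150, 202 and 182 CPM in NEE-sampled RNA, against 235.1 and 235.4 CPM, a log2 fold change of −0.08 ± 0.20 (SE, adjusted p = 0.783 by edgeR) that was 0.08 with upper-quartile scaling.

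GSTP1 (ENSG00000084207, chr11:67583595-67586656, plus strand), the pi-class glutathione transferase, had the smallest p of the list. It was at 1297, 1156 and 1561 CPM in NEE-sampled RNA, against 211 and 230 CPM in lysates right after NEE, a log2 fold change of 2.93 ± 0.31 (SE, n = 3 and 2, adjusted p = 5.78e-05 by edgeR). The NEE-sampled values were above every one of the 16 lysates, whose highest was 376 CPM. GPX2 was at 4319, 3731 and 4318 CPM in NEE-sampled RNA, against 101 and 364 CPM in lysates right after NEE (log2 fold change 4.46 ± 1.06, SE, adjusted p = 0.00649 by edgeR), and again above every lysate. GSR, which returns oxidised glutathione to its reduced form, was at 180, 216 and 142 CPM in NEE-sampled RNA, against 53.1 and 46.7 CPM (log2 fold change 2.16 ± 0.34, SE, adjusted p = 0.000591 by edgeR). The 2 subunits of the glutathione-making ligase were higher too, GCLC by 1.56 ± 0.31 and GCLM by 1.14 ± 0.33 on the log2 scale (SE, adjusted p = 0.00241 and 0.0177 by edgeR). GSTA1 had 265 counts over the 3 NEE-sampled libraries and 0 over the 2 lysates right after NEE, at least 67.7-fold higher when the lysates are set at 3 counts in all. GSTA2 had 241 counts and 0, at least 61.5-fold higher. Both were called (adjusted p = 0.00795 and 0.00989 by edgeR). The cystine transporter SLC7A11 was the exception among the glutathione genes, at 48.5, 24.6 and 19.7 CPM in NEE-sampled RNA against 138 and 107 CPM in lysates right after NEE (log2 fold change −1.66 ± 0.35, SE, adjusted p = 0.00312 by edgeR).

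The thioredoxin pair moved in opposite directions. TXN was at 387, 292 and 385 CPM in NEE-sampled RNA, against 114 and 101 CPM in lysates right after NEE, a log2 fold change of 2.05 ± 0.27 (SE, adjusted p = 0.000189 by edgeR). TXNRD1 (ENSG00000198431, chr12:104215779-104350305, plus strand) was at 642, 776 and 589 CPM in NEE-sampled RNA, against 2254 and 2070 CPM, a log2 fold change of −1.37 ± 0.19 (SE, adjusted p = 0.000235 by edgeR). No lysate reached as low as the NEE-sampled values of TXNRD1 or as high as those of TXN. PRDX1 was higher by 1.64 ± 0.33 on the log2 scale (SE, adjusted p = 0.00274 by edgeR), and SRXN1, with 0 to 18 counts per library, was not called.

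Of the reductases, AKR1C2 was at 4314, 4782 and 5168 CPM in NEE-sampled RNA, against 1523 and 1592 CPM in lysates right after NEE (log2 fold change 1.93 ± 0.30, SE, adjusted p = 0.000571 by edgeR). AKR1C1 was at 1288, 1255 and 1358 CPM in NEE-sampled RNA, against 330.0 and 261 CPM (2.46 ± 0.39, SE, adjusted p = 0.000603 by edgeR). Reads of these near copies may be split unevenly, and AKR1C3 was also higher, by 1.36 ± 0.46 (SE, adjusted p = 0.0376 by edgeR). NQO1 was at 2961, 3333 and 3638 CPM in NEE-sampled RNA, against 2449 and 2367 CPM (log2 fold change 0.78 ± 0.27, SE, adjusted p = 0.0396 by edgeR), inside the range of all lysates. Its call was lost with the 3 technical replicates summed into 1 library (adjusted p = 0.11). ALDH1A1 was lower, at 4169, 5426 and 4590 CPM in NEE-sampled RNA against 8959 and 8439 CPM (log2 fold change −0.56 ± 0.20, SE, adjusted p = 0.0466 by edgeR). With monolayer replicate 1 before NEE in the fit, AKR1B1, AKR1B10, CBR1 and ALDH3A1 were not called, with −0.17, −0.63, 0.76 and 0.99.

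The export genes were lower in NEE-sampled RNA. ABCC2 was at 128, 98.0 and 83.7 CPM in NEE-sampled RNA, against 646 and 619 CPM in lysates right after NEE, a log2 fold change of −2.29 ± 0.29 (SE, adjusted p = 0.00015 by edgeR). ABCC3 was at 186, 158 and 192 CPM in NEE-sampled RNA, against 644 and 1193 CPM (log2 fold change −2.04 ± 0.33, SE, adjusted p = 0.000707 by edgeR). UGDH was at 641, 842 and 655 CPM in NEE-sampled RNA, against 2371 and 1845 CPM (−1.24 ± 0.20, SE, adjusted p = 0.000671 by edgeR). For each of these 3 genes every NEE-sampled value lay below all 16 lysates. EPHX1 was not called, with 0.53. Of the other members, BLVRB, the biliverdin and flavin reductase, was higher by 2.84 ± 0.48 and CYP4F11 by 2.94 ± 0.60 (SE, adjusted p = 0.000928 and 0.00285 by edgeR). TALDO1, GSTM3 and MGST1 were higher by 1.69, 1.64 and 1.21 on the log2 scale. With monolayer replicate 1 before NEE in the fit, PGD, TKT, ME1, OSGIN1 and PIR, with −0.26 to 0.69, and SRXN1 did not pass the test.

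**Figure D4:**
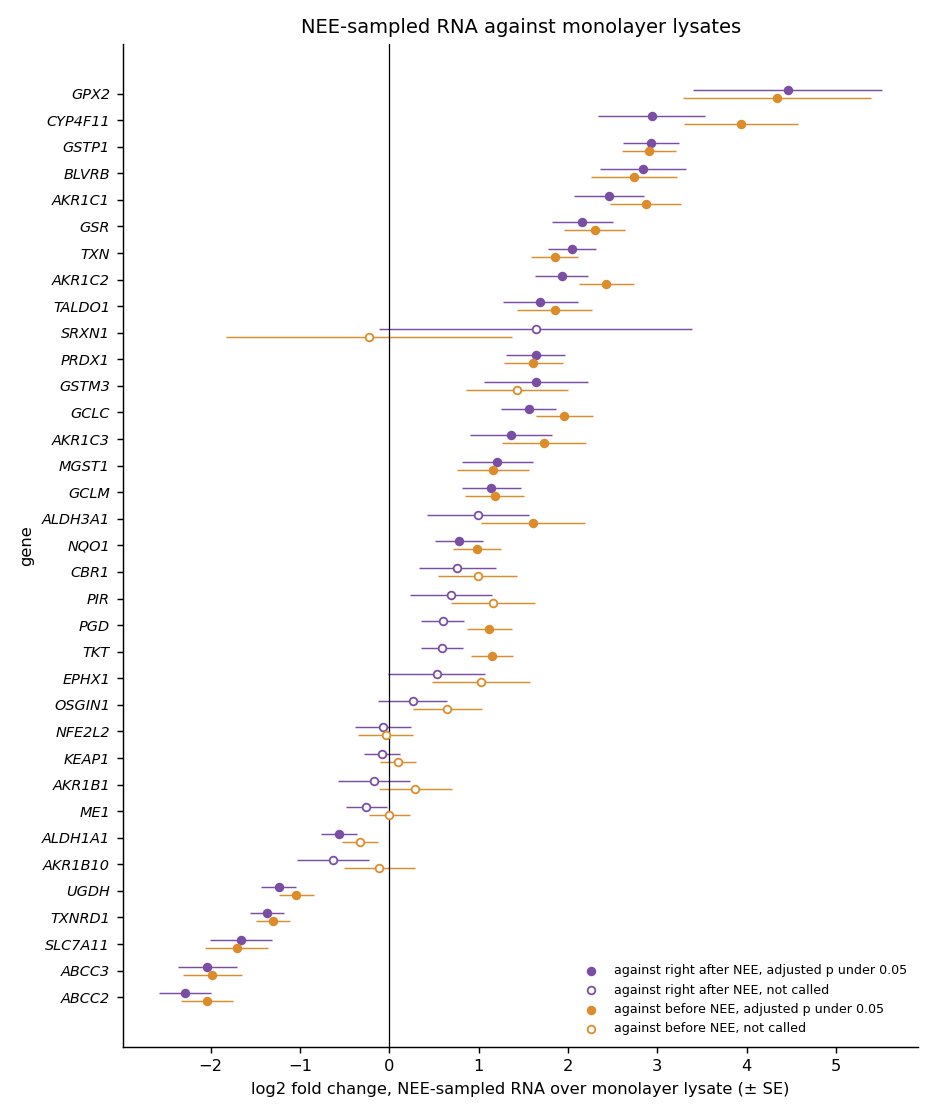
Log2 fold change, NEE-sampled RNA over monolayer lysates, with SE bars, for 35 of the 37 genes, against lysates right after NEE and before NEE, with filled points at an edgeR adjusted p under 0.05. GSTA1 and GSTA2 are left out because lysate libraries had 0 counts. GPX2 lies highest and the exporters ABCC2 and ABCC3 lowest.

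The same difference ran with transcript length over all genes. By the median length of a gene's protein-coding transcripts, 43.3% of all genes under 1500 bases were called higher in NEE-sampled RNA and 6.16% lower, against 6.07% higher and 35.3% lower at 3000 bases or more. Of the members, 17 were under 1500 bases, with 13 called higher and 1 lower, 13 were of 1500 to under 3000 bases, with 2 higher and 2 lower, and 7 were longer, with 3 higher and 3 lower. The median log2 fold change was 1.69, 0.53 and −0.26 in these classes for the members, beside 1.16, −0.15 and −0.84 for all genes. Across genes, Spearman's rho between length and log2 fold change was −0.54 over the 37 members and −0.39 over 13440 genes, as a description of genes measured in the same libraries. By this median, TXN, GSTP1, BLVRB and GPX2 are short and were higher, and TXNRD1, ABCC2 and SLC7A11 are long and were lower. AKR1C1, GCLC and GCLM are long by it and were higher. The coding sequences of AKR1C1 and AKR1C2 are each 972 bases, while their median transcript lengths are 3781.5 and 1481 bases. MALAT1 and NEAT1, RNAs of the nucleus, summed to 17.3 to 30.8 CPM in NEE-sampled RNA, against 136 to 184 CPM in the monolayers other than replicate 1 before NEE. The epithelial markers summed to 15570 to 18710 CPM, within the range of those monolayers, mostly through KRT8 and KRT18. Single markers lay outside their range in both directions. CDH1 was at 5.7, 8.1 and 11.7 CPM in NEE-sampled RNA, against 56.7 to 101.9 CPM in those monolayers. KRT19 was at 786, 892 and 1120 CPM, against 170 to 500 CPM. The natural killer and T cell markers summed to 0.756 to 2.31 CPM with CD3E and KLRD1 at 0. GAPDH was higher as well (log2 fold change 2.03, adjusted p = 0.000839 by edgeR), and ACTB was not called (0.24, adjusted p = 0.327). The part of length, of nuclear RNA and of the kit in the members' values was not tested.

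**Figure D5:**
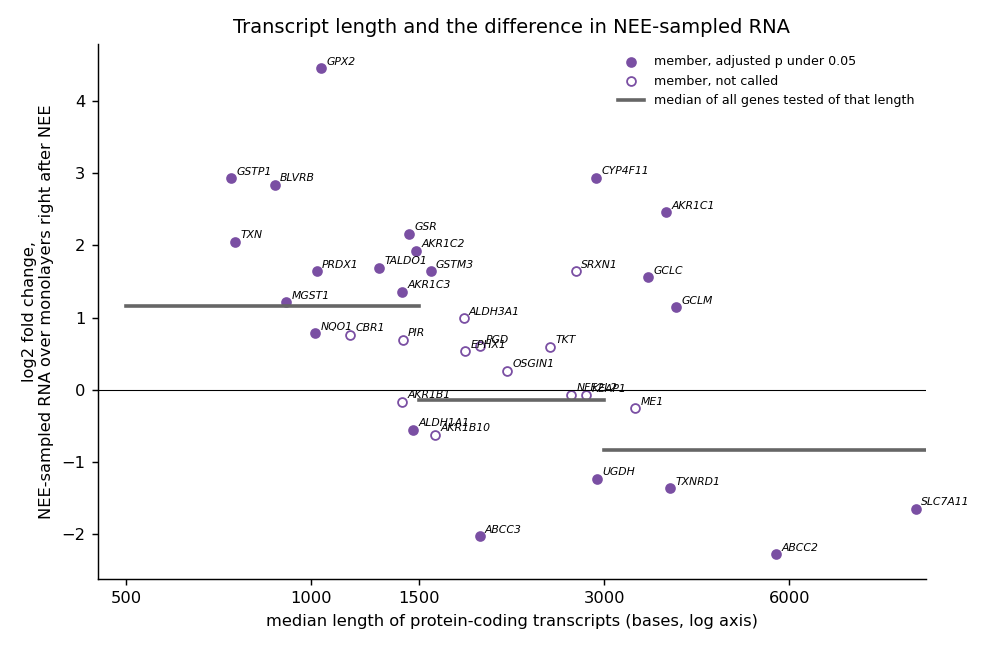
Log2 fold change, NEE-sampled RNA over monolayers right after NEE, against the median length of protein-coding transcripts (bases, log axis) for 35 of the 37 genes, GSTA1 and GSTA2 left out for their 0 counts, with grey bars for the median of all genes tested in each length class. The grey bars step down from 1.16 to −0.15 and −0.84, and members lie on both sides of the bar of their class.

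Of the 54 further pathway genes, 22 were called higher and 8 lower against lysates right after NEE, with a median of 0.30, and 22 and 9 without monolayer replicate 1 before NEE. FTH1 was at 5028 ± 784 CPM in NEE-sampled RNA against 271 ± 4.22 CPM in lysates right after NEE (mean ± SD, n = 3 and 2), a log2 fold change of 4.54 ± 0.28 (SE, adjusted p = 6.08e-06 by edgeR). FTL, the ferritin light chain, was at 110110 ± 19972 CPM in NEE-sampled RNA against 6759 ± 400 CPM (4.35 ± 0.33, SE, adjusted p = 1.61e-05 by edgeR). GPX4, the peroxidase of membrane lipids, had 3.80 ± 0.27 (SE, adjusted p = 1.29e-05 by edgeR), and these 3 short genes have processed pseudogenes with which they may share reads. SLC3A2 was at 199 ± 31.8 CPM in NEE-sampled RNA against 1718 ± 35.5 CPM (−2.79 ± 0.21, SE, adjusted p = 1.41e-05 by edgeR). SLC3A2 and SLC7A11, the 2 chains of the cystine transporter, were thus both lower in NEE-sampled RNA. The strand setting of the counting is not given in the sources used here, and 20 of the 37 genes overlap an annotated gene, pseudogene or small RNA on the opposite strand. These are NFE2L2, NQO1, AKR1C2, AKR1C3, CBR1, ALDH1A1, ALDH3A1, GCLC, SLC7A11, GPX2, GSTM3, MGST1, TXNRD1, PRDX1, ME1, UGDH, ABCC2, EPHX1, PIR and BLVRB, so reads of such pairs cannot be told apart. On the same strand, NFE2L2, KEAP1, GCLC, MGST1, TXNRD1, SRXN1 and OSGIN1 overlap an annotated gene and may share its reads.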

How the data were processed

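The deposited tables held raw counts per gene that the authors made for each of the 19 libraries, without normalization. Per the submitters' processing notes, FastQC, Trimmomatic, HISAT2 and featureCounts were used with GRCh38. The sources used here do not give versions, annotation, strand setting or the treatment of multi-mapped reads. Groups were taken from the labels. GENCODE release 29 gave positions and exon lengths for 58207 of 62700 genes. All 37 mitochondrially encoded genes had 0 counts in all libraries. The members, gene lists and tests were chosen with earlier results of these data known.

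Counts were filtered with filterByExpr, scaled with TMM and tested with edgeR 4.0.16 (robust quasi-likelihood F test, R 4.3.3, limma 3.58.1), with Benjamini-Hochberg adjustment over all genes and calls at an adjusted p under 0.05. The lysate fit held 16 libraries in 8 groups and 17822 genes, with 8 residual degrees of freedom. The fit of NEE-sampled RNA held its 3 libraries and 8 monolayer lysates, 17067 genes and 6 residual degrees of freedom. All 37 genes passed both filters. CPM used the library total over genes. Values are per library for up to 8 called genes of smallest p in a comparison, or for the 3 of smallest p where fewer than 3 were called, and always for NFE2L2, KEAP1 and NQO1. The further list held 58 genes, of which 56 were found and 54 tested, with up to 4 named. Fits were repeated with RLE or upper-quartile scaling, with no filter, with 5 CPM required in 2 libraries, with the replicate as a block, with DESeq2 1.42.0, with all 19 libraries in one fit, the compared groups only, NEE-sampled libraries summed, and leaving out each library. The average over cultures, the contrast of replicate numbers and the length classes were added after the data were seen.

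The labels carry the replicate number of lysates as a batch tag, so it was taken to pair them. Over 10084 genes, deviations of same-numbered libraries correlated at −0.277 to 0.498 (28 pairs, median 0.214, 19 above 0.1). No pair of libraries of a group agreed within sampling noise (mean chi-square per gene 38.3 to 229 in 11 pairs). The fits were checked on simulated data. Python 3.11.15, pandas 2.3.3, numpy 2.4.6, scipy 1.17.1, biopython 1.88 and matplotlib 3.10.9 were used.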

Additional observations from a re-analysis of the deposited data

Results flagged for a closer look

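In 8 of 74 sets of 8 lysates (37 genes in each culture, the 4 times together), the highest or lowest library lay farther from the rest than Dixon's 95% critical value for 8 libraries allows. Chance alone sets apart about 1 in 20 such sets, and the libraries of a set come from 4 times. In monolayers 5 of the 8 were low values of replicate 1 before NEE, namely AKR1C1 at 116 CPM, AKR1C2 at 718.7 CPM, AKR1B10 at 2762 CPM, OSGIN1 at 36.5 CPM and PIR at 24.5 CPM. GSTA2 was high in monolayer replicate 2 at 24 h, at 0.751 CPM, where the other monolayers had 0 counts. In spheroids GSTA2 was high in replicate 2 at 24 h, at 2.616 CPM, and BLVRB in replicate 2 right after NEE, at 286.8 CPM.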

How the results depend on the processing

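No result changed direction past its threshold under any alternative run, and most kept their side of it. With 2 libraries a group, few changes over time passed the test, and the numbers called moved with filter and tool. The cause of each shift was not tested. Without a filter on low counts, genes called over time numbered 52 right after NEE, 99 at 2 h and 132 at 24 h in monolayers, 22 between right after and 24 h, 1, 56 and 16 in spheroids, 25, 35 and 69 for the interaction, and 10, 102 and 89 over both cultures. With DESeq2 they numbered 7, 53 and 44 in monolayers, 1 and 39 in spheroids right after NEE and at 2 h, 1, 3 and 11 for the interaction, and 45 and 5 over both cultures at 2 h and 24 h. With the compared groups only they were 0 at 2 h in each culture and 2 over both, with 0 members, and with all 19 libraries 0 in monolayers at 2 h. Without a filter 1 member was called at 2 h in each culture, at 24 h in monolayers and at 24 h over both cultures, and with DESeq2 1 at 2 h in each culture and at 24 h in monolayers. Over the 3 times after NEE, spheroids against monolayers gave 13 members without a filter, 13 with the replicate block and 11 with the compared groups only, beside 7, and 3306 genes with DESeq2, beside 2192. The replicate block changed no other number of calls by over 1.5 times, with 16 members over the 4 times, 21 in NEE-sampled RNA against right after NEE and 25 against before. Summing the NEE-sampled libraries called 4011 genes against before NEE and 3601 against right after.

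Leaving out each library in turn gave these ranges. In monolayers, members called ran from 0 to 1, 0 to 1 and 0 to 3 right after NEE, at 2 h and at 24 h, genes from 0 to 38, 0 to 48 and 0 to 102, and member medians from −0.17 to 0.63, −0.02 to 0.90 and 0.11 to 1.01. From right after to 24 h they were 0 to 0, 0 to 0 and 0.21 to 0.39. In spheroids members stayed at 0, genes ran from 0 to 0, 1 to 8 and 0 to 1, and medians from −0.23 to 0.27, −0.20 to 0.23 and −0.34 to 0.27. For the interaction members stayed at 0, genes ran from 0 to 12, 0 to 2 and 0 to 6, and medians from −0.62 to 0.12, −0.82 to 0.09 and −1.09 to −0.12. Over both cultures members ran from 0 to 0, 0 to 1 and 0 to 0, genes from 0 to 1, 2 to 16 and 0 to 4, and medians from −0.08 to 0.32, −0.05 to 0.49 and 0.03 to 0.63. Between cultures over 4 times the ranges were 10 to 20 members, 2387 to 4009 genes and medians of 0.27 to 0.60, and over 3 times 4 to 10 members, 1230 to 2502 genes and 0.13 to 0.35. NEE-sampled RNA gave 22 to 30 members, 3957 to 6429 genes and 0.77 to 1.75 against before NEE, and 15 to 30, 3250 to 6367 and 0.88 to 1.07 against right after. Replicate 2 against 1 over lysates gave 5 members and 196 genes without replicate 1 of the monolayers before NEE.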
